A study of Homo sapiens with 12 samples.

Results

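The mitochondrial ribosomal proteins were taken as every gene of the deposited table whose symbol starts with MRPL or MRPS followed by a digit, which gave 81 of 26506 genes. Of these, 77 are protein-coding symbols. The other 4 are the antisense RNA MRPL23-AS1 and the pseudogenes MRPL42P5, MRPL45P2 and MRPS31P5. All 77 protein-coding members passed the filter on low counts, each with at least 186 counts in every sample, and MRPL45P2 and MRPS31P5 passed as well. By their known place in the ribosome 50 of the 77 belong to the large subunit, among them MRPS18A and MRPS30 despite their names, and 26 to the small subunit. MRPS36 is now assigned to a dehydrogenase complex of the mitochondrial matrix and not to the ribosome, and it is kept here because its symbol meets the rule.

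Mitochondria carry their own ribosome, which translates the few messages of the mitochondrial genome into core subunits of the respiratory chain. Its RNAs come from mitochondrial DNA, but all of its proteins are encoded in the nucleus, made in the cytosol and imported, and some have bacterial counterparts while others exist only in mitochondria. The proximal tubule is among the tissues richest in mitochondria, and loss of these proteins limits oxidative phosphorylation. No gene encoded in mitochondrial DNA is listed in the table, so the products that this ribosome makes are not described here.

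The samples are mRNA profiles of HK-2, a human kidney cell line made immortal from tubule epithelium, in 4 groups of 3 that differ in the short hairpin RNA they carry. Luc976 served as the control, its name pointing to luciferase, a gene absent from human cells. Cells of the shVHL61 group carry a hairpin against VHL, which sends hypoxia-inducible factors to degradation when oxygen is present. Cells of the shKIM-1 group, titled KIM1-A1, carry a hairpin against KIM-1, a receptor of injured tubule cells encoded by HAVCR1, and shVHL61-KIM1A1 cells carry both. Each gene is lowered by a single hairpin in a single cell line, and every group, the control included, expresses a hairpin. Nothing in the labels says that the 3 samples of a group are separate cultures, so the p-values cover no more than the sample-to-sample spread seen here, and that may be technical.

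Depth ranged from 16500965 to 21089716 counts per sample. VHL fell in shVHL61 (log2 fold change -0.48 ± 0.06 SE) and in shVHL61-KIM1A1 (-0.36 ± 0.06), and HAVCR1 fell in shKIM-1 (-1.08 ± 0.10) and in shVHL61-KIM1A1 (-0.53 ± 0.10). Of 8 proximal tubule markers, 6 were below 1 TPM (the authors' length-scaled abundance) in every sample, among them LRP2 and CUBN. In the same list GGT1 was at 96.93 to 149 TPM and MME at 1.46 to 9.02 TPM. Of 7 tubule epithelium markers KRT8, KRT18, KRT19, PAX8 and EPCAM were above 47 TPM in every sample, CDH1 was at 1.81 to 5.09 TPM and PAX2 below 1 TPM. In the lists for other cell types, 3 of 4 endothelial, 3 of 5 immune and 2 of 5 fibroblast markers were below 1 TPM, with CD68 and LUM carrying most of the immune and fibroblast sums. The immune sum ran from 131.5 to 138.3 TPM in Luc976 and from 163.6 to 168.1 TPM in shVHL61-KIM1A1, and the fibroblast sum from 104.1 to 119.7 and from 130 to 155.4 TPM; their part in the results was not tested. In bulk RNA, fewer cells of a kind and less RNA per cell cannot be told apart.

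Promoters of 69 of the 77 members were found in RefSeq (GRCh38.p14, 250 bases before to 50 after the start). Core motifs of the factors best known at genes for mitochondrial proteins were searched on both strands as plain letters: GCGCATGC for NRF1, CCGGAAG for ETS factors such as GABPA, AAGATGGC for YY1, and CACGTG, the E-box of MYC. The YY1 core was found in 21 of the 69 members (30.4%) and in 6.28% of the 11153 tested genes with a promoter in the table. The ETS core was found in 29 members (42%) and in 21.7% of those tested genes. NRF1 and E-box cores were near the share over tested genes, in 6 members (8.7% against 6.34%) and 10 members (14.5% against 12.6%). Counted per promoter, the YY1 and ETS cores were in 27.1% and 37.6% of the 85 promoters of members and in 2.89% and 10.3% of all 35116 promoters. A match is only a description of the letters. The 4 promoters below belong to the members with the largest rises (MRPL33 and MRPS33) and to a pair with large falls (MRPL20 and MRPS18B), and their capitals mark the motifs.

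MRPL33 (chr2:27771469-27771768, plus strand, ETS core 8 bases before the start): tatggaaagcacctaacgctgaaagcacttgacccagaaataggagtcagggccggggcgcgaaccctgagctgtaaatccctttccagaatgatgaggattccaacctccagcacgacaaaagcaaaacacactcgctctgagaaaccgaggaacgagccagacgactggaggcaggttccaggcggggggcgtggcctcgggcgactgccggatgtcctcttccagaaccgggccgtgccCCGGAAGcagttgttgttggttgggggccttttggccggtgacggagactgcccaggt
MRPS33 (chr7:141014630-141014929, minus strand, E-box core 101 bases before the start): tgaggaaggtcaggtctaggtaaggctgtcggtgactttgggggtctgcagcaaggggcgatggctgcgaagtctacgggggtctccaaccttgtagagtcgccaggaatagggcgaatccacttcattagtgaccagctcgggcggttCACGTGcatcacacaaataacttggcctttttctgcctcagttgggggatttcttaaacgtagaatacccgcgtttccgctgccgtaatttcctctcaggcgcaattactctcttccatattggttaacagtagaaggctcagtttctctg
MRPL20 (chr1:1407244-1407543, minus strand, a pair of ETS cores before the start and a YY1 core 16 bases into the gene): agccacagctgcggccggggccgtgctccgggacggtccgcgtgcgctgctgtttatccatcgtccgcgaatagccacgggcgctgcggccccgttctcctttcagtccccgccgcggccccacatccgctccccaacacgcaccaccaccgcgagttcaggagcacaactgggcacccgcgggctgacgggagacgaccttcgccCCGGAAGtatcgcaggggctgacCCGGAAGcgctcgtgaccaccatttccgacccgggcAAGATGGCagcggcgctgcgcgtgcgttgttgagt
MRPS18B (chr6:30617590-30617889, plus strand, NRF1 core 23 bases before the start and YY1 core 24 bases into the gene): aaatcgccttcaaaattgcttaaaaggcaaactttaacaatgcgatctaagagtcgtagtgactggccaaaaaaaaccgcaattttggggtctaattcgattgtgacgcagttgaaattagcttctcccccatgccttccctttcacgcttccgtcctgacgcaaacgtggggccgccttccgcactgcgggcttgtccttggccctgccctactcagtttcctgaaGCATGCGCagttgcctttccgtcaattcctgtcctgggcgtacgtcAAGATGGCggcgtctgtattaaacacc

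In shVHL61-KIM1A1 against Luc976, the ETS core was found in 8 of 20 matched members that rose (40.0%) and in 5 of 12 that fell (41.7%). The YY1 core was found in 7 of 20 (35.0%) and in 5 of 12 (41.7%). MRPS33 has a second promoter in the table, with an ETS core and no E-box core.

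On the TPM scale, which is per length, the members were abundant and unequal. In Luc976 they ran from 14.7 TPM for MRPL19, a large-subunit protein, to 386 TPM for MRPL51, a mitochondria-specific large-subunit protein, with a median of 106 TPM against 14.5 TPM over all 14230 genes tested. The highest after MRPL51 were MRPL12 (362 TPM), which forms the stalk where translation factors dock, MRPS24 (297 TPM), MRPL33 (292 TPM), MRPL20 (278 TPM) and MRPS15 (264 TPM). The lowest above MRPL19 were MRPL22 (18.5 TPM), a protein of the exit tunnel, MRPS36 (19.3 TPM), MRPL57 (20.2 TPM), MRPS31 (22.8 TPM) and MRPS25 (27.7 TPM). The order is not fixed across groups, since MRPL33 was the highest member in shVHL61-KIM1A1 with 481 TPM, ahead of MRPL51 with 429 TPM.

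As a share of all counts the family was lowest with the KIM-1 hairpin alone. The 77 members held 0.494% ± 0.0022 of counts in Luc976 (SD, n = 3), 0.505% ± 0.0055 in shVHL61, 0.472% ± 0.0107 in shKIM-1 and 0.509% ± 0.0199 in shVHL61-KIM1A1. The 3 shKIM-1 samples lay below all 9 others, and the wide spread in shVHL61-KIM1A1 came from replicate 1 (0.487%) against replicates 2 and 3 (0.516% and 0.524%). Summed TPM of members gave another order, 8802 ± 47 in Luc976, 8985 ± 82 in shVHL61, 8569 ± 139 in shKIM-1 and 8697 ± 164 in shVHL61-KIM1A1. There shVHL61-KIM1A1 replicate 1 (8508) lay below shKIM-1 replicates 2 and 3 (8602 and 8688). Summed TPM of large-subunit members was 1.99 ± 0.02 times that of small-subunit members in Luc976, 1.93 ± 0.01 in shVHL61, 1.95 ± 0.02 in shKIM-1 and 1.93 ± 0.02 in shVHL61-KIM1A1. Within a group the median coefficient of variation of a member's CPM (counts scaled to library size, not to length) was 6.45%, and that of 8859 tested genes at least as high was 6.28%.

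**Figure D1:**
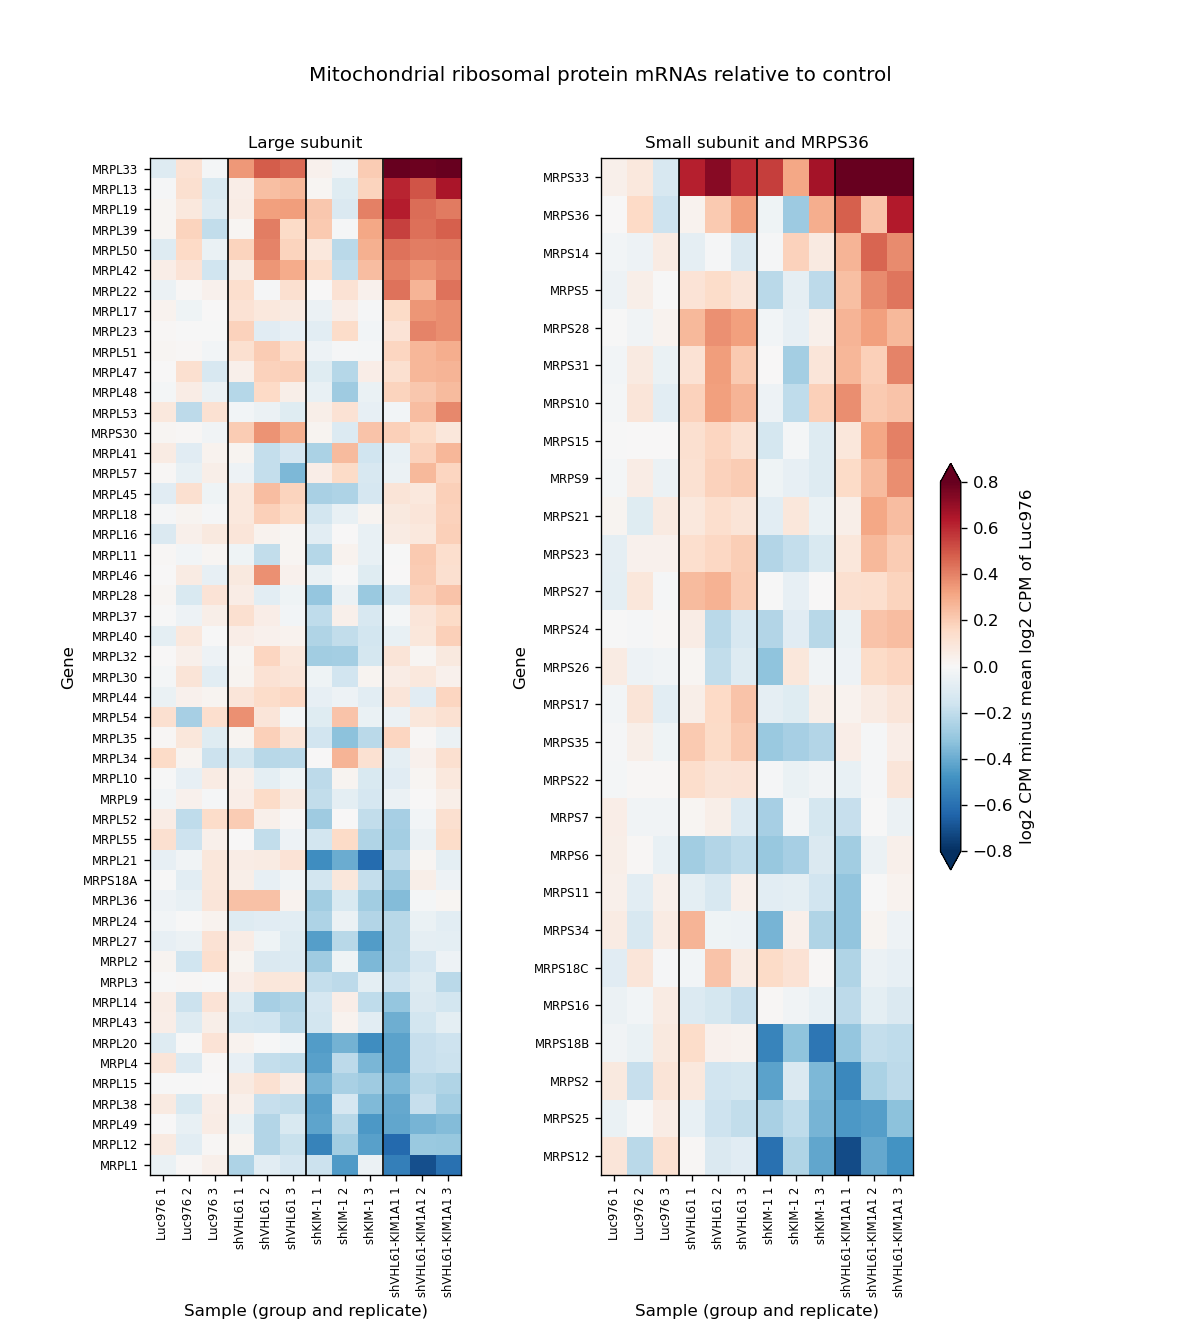
Each row is a gene, each column a sample, and colour is log2 CPM minus the gene's mean log2 CPM in Luc976 (colours saturate at the ends of the scale), with genes ordered by their mean in shVHL61-KIM1A1. MRPL33 and MRPS33 stood at the top in shVHL61-KIM1A1, and MRPL1 and MRPS12 at the bottom.

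The samples carried structure by gene length and by transcript GC content, of unknown cause, that bears on the results below. Members are short, with a median effective length 0.384 times that of all genes tested and 67 of 77 among the shortest when all genes are split into 3 equal bins. In the comparisons with shVHL61-KIM1A1, short genes as a class were higher. In shVHL61 and in shKIM-1 against Luc976 the median log2 fold change of the shortest genes was -0.01. That of the longest was 0.00 and 0.03. Against shKIM-1 the median log2 fold change was 0.13 in the bin of shortest genes and -0.11 in that of the longest. Within groups, 6 samples (Luc976 1 and 3, shVHL61 1, shKIM-1 2, shVHL61-KIM1A1 2 and 3, called set A) differed from the other 6 (set B) along an axis that followed transcript GC content. Counts with the length trend removed and on TPM, and medians within each set, are therefore given beside the main ones. Set A holds a single sample of shVHL61 and of shKIM-1, and set B a single sample of Luc976 and of shVHL61-KIM1A1. The part of length and set in the results was not tested further.

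With the VHL hairpin alone a few members rose (9.09%), a share near that over all genes tested. In shVHL61 against Luc976, 7 of 77 rose (7.21% of all genes tested rose) and 0 fell (9.44%), with a median log2 fold change of 0.08 over members and -0.01 over all genes (edgeR quasi-likelihood test, Benjamini-Hochberg adjusted over all genes, threshold 0.05). Of the 7, 5 are among the 26 small-subunit members: MRPS33, MRPS28, MRPS10, MRPS27 and MRPS35. MRPL33 and MRPS30 are among the 50 of the large subunit.

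MRPS33, a small-subunit protein without a bacterial counterpart, was at 40.7, 41.9 and 36.2 CPM in Luc976 and at 60.8, 65.5 and 59.9 CPM in shVHL61. The groups did not overlap, and the log2 fold change was 0.65 ± 0.09 (SE, edgeR adjusted p = 8.75e-05). MRPL33, the counterpart of a small bacterial large-subunit protein, was at 57.3, 66.5 and 61.0 CPM in Luc976 and at 78.0, 86.1 and 84.3 CPM in shVHL61. All 3 shVHL61 samples were higher, by a log2 fold change of 0.43 ± 0.07 (edgeR adjusted p = 0.000699). Next came MRPS28, which passed in 22 of 23 settings (0.32 ± 0.07), MRPS30 (0.28 ± 0.08) and MRPS10 (0.26 ± 0.09) on the log2 scale. MRPS27 (0.24 ± 0.06) passed in 21 of 23 settings and MRPS35 (0.19 ± 0.05) in 15. MRPS10 and MRPS30 both lost the call when Luc976 replicate 1 or 3 or shVHL61 replicate 2 or 3 was left out (adjusted p = 0.072 to 0.174), and MRPS10 also without shVHL61-KIM1A1 replicate 2 or 3 (0.0614 and 0.0597). The count of risen members was 3 without Luc976 replicate 1, 4 without Luc976 replicate 3 or shVHL61 replicate 3, and 11 without shKIM-1 replicate 2. Over all genes 4.0%, 3.9%, 4.0% and 10.3% rose in these fits. After removal of the length trend 9 rose and 2 fell (8.93% and 10.3% of all genes), and on log2(TPM + 1) with limma 5 rose and 4 fell (4.15% and 10.7%).

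KIM-1 knockdown alone was marked by falls. In shKIM-1 against Luc976, 20 of 77 members fell (16.6% of all genes tested fell) and 1 rose (14.8%), with a median log2 fold change of -0.08 over members and 0.01 over all genes. The falls took in 13 of 50 large-subunit and 7 of 26 small-subunit members, and 13 of the 48 with a bacterial counterpart against 7 of the 28 specific to mitochondria.

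MRPL21, a large-subunit protein with a bacterial counterpart, was at 43.4, 44.4 and 48.4 CPM in Luc976 and at 32.1, 34.5 and 29.6 CPM in shKIM-1. Every shKIM-1 sample was lower, by a log2 fold change of -0.50 ± 0.08 (edgeR adjusted p = 0.000133). MRPS18B, 1 of 3 human relatives of bacterial ribosomal protein S18, was at 134, 132 and 145 CPM in Luc976 and at 95.1, 110 and 92.1 CPM in shKIM-1. Its log2 fold change was -0.47 ± 0.07 (edgeR adjusted p = 0.000105), with no overlap. The relatives MRPS18A and MRPS18C gave -0.08 ± 0.09 and 0.09 ± 0.09 on the log2 scale and passed in no comparison of the main analysis. With the length trend removed both were lower in shVHL61-KIM1A1 against Luc976 (MRPS18A -0.21, adjusted p = 0.02; MRPS18C -0.26, 0.0255) and against shVHL61 (-0.21, 0.0277 and -0.36, 0.00454), and MRPS18C also against shKIM-1 (-0.37, 0.00398) and in the interaction of the hairpins (-0.47, 0.0174). By limma on log2(TPM + 1) MRPS18A in shVHL61-KIM1A1 was lower against Luc976 (-0.18, 0.0439) and shKIM-1 (-0.19, 0.0321). MRPS18C was so against Luc976 (-0.20, 0.0446), shVHL61 (-0.25, 0.0174) and shKIM-1 (-0.38, 0.00119) and in the interaction (-0.43, 0.0126). In that fit the median over all genes was -0.06 against Luc976, -0.04 against shVHL61, -0.15 against shKIM-1 and -0.13 in the interaction. The limma value of MRPS18A against shKIM-1 was thus near that of genes at large, of which 37.8% were lower there. With length and GC trends removed MRPS18C passed against Luc976, shVHL61 and shKIM-1 and in the interaction (edgeR adjusted p = 0.000132 to 0.0149). MRPS18A then passed against shVHL61 (-0.16, 0.00709). Against shVHL61, MRPS18A passed with a term for library set (-0.14, 0.0369) and MRPS18C without shVHL61 replicate 1 (-0.26, 0.0467). The set was read from these same samples, so the p-value with that term may be too small. MRPL20, a large-subunit assembly protein in bacteria, was at 86.1, 92.0 and 99.6 CPM in Luc976 and at 67.9, 71.1 and 65.4 CPM in shKIM-1, a log2 fold change of -0.44 ± 0.07 (edgeR adjusted p = 0.000305). MRPS12, the counterpart of the bacterial decoding-centre protein, and MRPL12 changed by -0.42 ± 0.10 and -0.41 ± 0.09 on the log2 scale. The 5 falls named here held under every alternative run, 23 settings with the main one counted.

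MRPS33 was the lone member that rose, at 57.9, 48.9 and 62.6 CPM in shKIM-1 against 36.2 to 41.9 CPM in Luc976 (log2 fold change 0.51 ± 0.09, edgeR adjusted p = 0.000345). It too passed in all 23 settings. The count of fallen members was 12 without shKIM-1 replicate 1 (12.2% of all genes fell) and 13 without Luc976 replicate 3 (12.6%). Removing the length trend gave 24 lower and 1 higher (18.5% and 15.4% of all genes), and log2(TPM + 1) with limma 12 lower and 3 higher (9.85% and 21.6%).

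**Figure D2:**
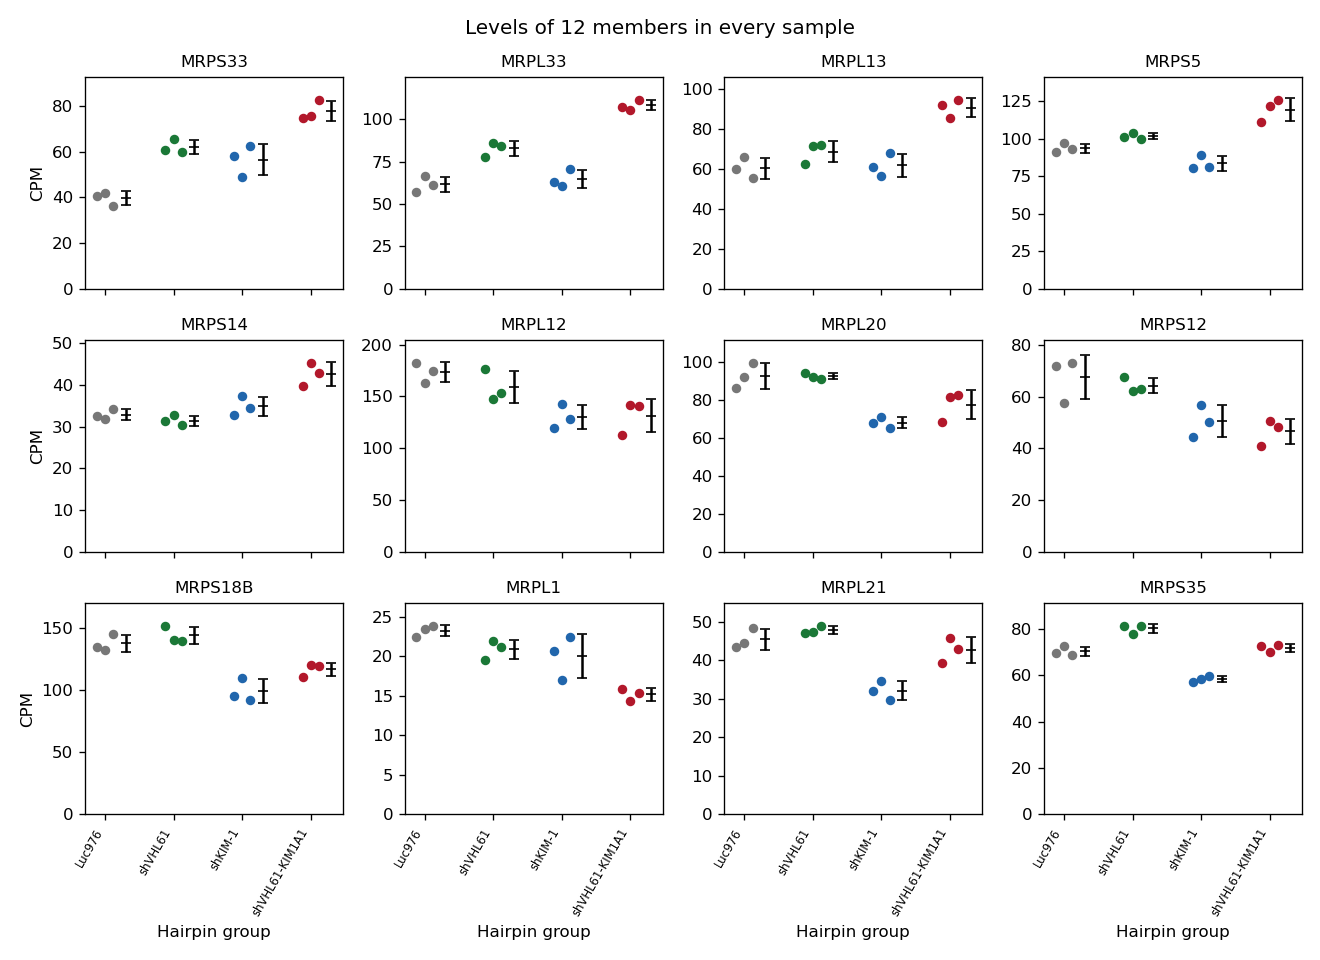
CPM of 12 members in each sample, 3 points per hairpin group, with the mean and SD of the group beside them in black. MRPS33 was lowest in Luc976 and highest in shVHL61-KIM1A1, and MRPL21 and MRPS35 were lowest in shKIM-1.

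With both hairpins members moved both ways, as did genes at large. In shVHL61-KIM1A1 against Luc976, 23 of 77 members rose (25.2% of all genes tested rose) and 13 fell (26.3%) with a median log2 fold change of 0.07. Among members the shares were 29.9% and 16.9%. With the length trend removed the balance turned, to 12 higher and 27 lower with a median of -0.05 (25.5% and 27.0% of all genes). On log2(TPM + 1) with limma it was 15 higher and 24 lower (18.5% and 31.8% of all genes). In that fit the median was -0.02 over members and -0.06 over all genes, so that members lay 0.05 above genes at large. The members' median was 0.12 in set A alone and -0.01 in set B alone (0.01 and 0.00 over all genes). Set B holds a single sample of each of these groups. The direction of the family's median in this comparison therefore differed between settings, while several single members passed in all of them.

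MRPS33 was at 74.8, 75.6 and 82.6 CPM in shVHL61-KIM1A1, above every sample of the other groups, a log2 fold change of 0.97 ± 0.09 against Luc976 (edgeR adjusted p = 1.76e-07). MRPL33 was at 107, 106 and 112 CPM and likewise stood above all other samples, with a log2 fold change of 0.81 ± 0.07 (edgeR adjusted p = 1.69e-07). Without the length trend these log2 fold changes were 0.77 and 0.56, both still past the threshold. MRPL13, a large-subunit protein with a bacterial counterpart, was at 91.9, 85.4 and 94.6 CPM against 55.4 to 65.9 CPM in Luc976, a log2 fold change of 0.59 ± 0.08 (edgeR adjusted p = 2.43e-05). MRPL19 and MRPL39, also of the large subunit, followed with 0.50 ± 0.11 and 0.48 ± 0.11 on the log2 scale. MRPL19 is among the few long members, at 2.73 times the median length of tested genes.

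MRPL1, the protein of the mobile stalk at the exit side of the ribosome, was the member that fell furthest. It was at 22.4, 23.4 and 23.9 CPM in Luc976 and at 15.9, 14.3 and 15.3 CPM in shVHL61-KIM1A1, below every sample of the other groups, with a log2 fold change of -0.61 ± 0.10 (edgeR adjusted p = 7.15e-05). In the single-hairpin groups it did not pass, with -0.16 ± 0.09 in shVHL61 and -0.21 ± 0.09 in shKIM-1. MRPS12 was at 71.8, 57.8 and 73.2 CPM in Luc976 and at 40.9, 50.5 and 48.2 CPM in shVHL61-KIM1A1, a log2 fold change of -0.54 ± 0.10 (edgeR adjusted p = 0.00043). MRPS25 (-0.41 ± 0.07), MRPL12 (-0.40 ± 0.09) and MRPL49 (-0.38 ± 0.07) came next on the log2 scale. These 5 falls and the rises of MRPS33, MRPL33, MRPL13, MRPL19 and MRPL39 held in all 23 settings. The count of fallen members was 8 without Luc976 replicate 3 (22.9% of all genes fell).

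Set beside the single hairpin, 11 of the 20 members lowered in shKIM-1 were also lowered in shVHL61-KIM1A1, both against the same Luc976 samples, among them MRPL12, MRPL20, MRPS12 and MRPS18B. Another 8 did not pass in shVHL61-KIM1A1, such as MRPL21 (-0.09 ± 0.08) and MRPS35 (0.03 ± 0.06). MRPS23 alone was lower in shKIM-1 (-0.18 ± 0.06) and higher with both hairpins (0.18 ± 0.06), each in 17 of 23 settings. With the length trend removed the rise was 0.09 (edgeR adjusted p = 0.227). Over all genes 26.3% fell and 25.2% rose with both hairpins against Luc976. These joint counts were not made over all genes, so they are not read as a trait of the family.

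**Figure D3:**
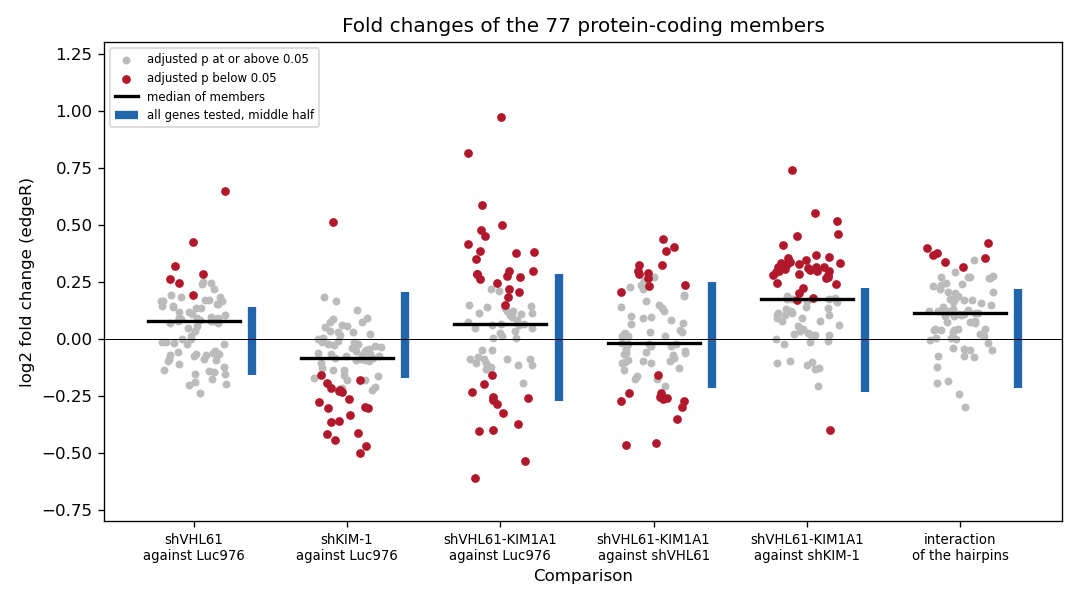
Points are log2 fold changes of the 77 members in each comparison (vertical axis), red where the edgeR adjusted p is below 0.05, with black lines at the members' medians and blue bars from the lower to the upper quartile of all genes tested. The median is highest, at 0.17, for shVHL61-KIM1A1 against shKIM-1 and lowest, at -0.08, for shKIM-1 against Luc976. With the length trend removed the median for shVHL61-KIM1A1 against Luc976 turns from 0.07 to -0.05.

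Adding the KIM-1 hairpin to VHL knockdown moved as many members up as down. In shVHL61-KIM1A1 against shVHL61, 12 of 77 rose (21.2% of all genes tested rose) and 12 fell (21.3%), with a median log2 fold change of -0.02. MRPS14, a small-subunit protein with a bacterial counterpart, was at 31.3, 32.6 and 30.3 CPM in shVHL61 and at 39.7, 45.3 and 42.8 CPM with both hairpins, a log2 fold change of 0.44 ± 0.07 (edgeR adjusted p = 0.000182). MRPL13 (0.40 ± 0.08), MRPL33 (0.39 ± 0.07), MRPS33 (0.32 ± 0.08) and MRPL57 (0.32 ± 0.10) followed on the log2 scale. MRPL33 and MRPS33 lost the call with the length trend removed (log2 fold changes 0.16 and 0.13), and MRPL57 did so without shVHL61 replicate 3 (adjusted p = 0.092) or shVHL61-KIM1A1 replicate 2 (0.0802) or 3 (0.0526).

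Among the falls, MRPS12 changed by -0.46 ± 0.10, from 62.1 to 67.5 CPM in shVHL61 to 40.9 to 50.5 CPM (edgeR adjusted p = 0.00185). MRPL1 changed by -0.46 ± 0.10 as well, and MRPL15, a large-subunit protein with a bacterial counterpart, by -0.35 ± 0.06. MRPS18B (-0.30 ± 0.07), which had been lower in shKIM-1, and MRPL36 (-0.28 ± 0.09) followed on the log2 scale, and MRPL36 lost the call without shVHL61 replicate 1 (adjusted p = 0.0882) or 2 (0.0946) or shVHL61-KIM1A1 replicate 1 (0.138). The count of rises was 6 without shVHL61 replicate 3 or shVHL61-KIM1A1 replicate 2 or 3, and 18 without shVHL61-KIM1A1 replicate 1. Over all genes 17.2%, 17.9%, 16.9% and 19.8% rose in these fits. After removal of the length trend 7 rose and 29 fell (20.4% and 22% of all genes), and on log2(TPM + 1) with limma 9 rose and 18 fell (16.1% and 24.2%). The median over members was 0.03 in set A and -0.07 in set B (0.01 over all genes in both). Set A holds a single shVHL61 sample and set B a single shVHL61-KIM1A1 sample.

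Adding the VHL hairpin to KIM-1 knockdown moved members mostly upward. In shVHL61-KIM1A1 against shKIM-1, 36 of 77 members rose (21.1% of all genes tested rose) and 1 fell (20.9%), with a median log2 fold change of 0.17 against 0.00 over all genes. The rises included 21 of 50 large-subunit and 14 of 26 small-subunit members. MRPL33 was at 63.0, 60.4 and 70.7 CPM in shKIM-1 and at 106 to 112 CPM with both hairpins, a log2 fold change of 0.74 ± 0.07 (edgeR adjusted p = 6.1e-07). MRPS5, the counterpart of a bacterial protein of the small subunit, was at 80.6, 89.2 and 81.0 CPM in shKIM-1 and at 111, 122 and 126 CPM with both, a log2 fold change of 0.51 ± 0.06 (edgeR adjusted p = 7.09e-06). MRPL13 (0.55 ± 0.08), MRPS33 (0.46 ± 0.08) and MRPS36 (0.45 ± 0.14) also rose, and MRPL1 was the member that fell (-0.40 ± 0.10).

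The count was lower once length was taken into account. With the length trend removed 17 rose and 6 fell (20.7% and 19.8% of all genes), and the median log2 fold change was 0.03. MRPS33 (0.22 on the log2 scale, adjusted p = 0.0675) and MRPS36 (0.32, adjusted p = 0.0924) then missed the threshold, while MRPL33, MRPL13 and MRPS5 kept it. On log2(TPM + 1) with limma 8 rose and 14 fell (9.43% and 37.8% of all genes), but there the median of all genes moved to -0.15, so that members lay 0.14 above it. MRPS36 also lost the call without shKIM-1 replicate 1 (adjusted p = 0.0529) or 2 (0.0616) or shVHL61-KIM1A1 replicate 3 (0.0881). The median over members was 0.18 in set A and 0.13 in set B (0.00 over all genes in both). Set A holds a single shKIM-1 sample and set B a single shVHL61-KIM1A1 sample.

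Across the 5 pairwise comparisons, 53 members passed in at least 1 (68.8%, against 72.1% of all genes tested) and 24 in none. MRPS33 alone passed in all 5 (1.3% of members, against 2.46% of all genes tested), and was lowest in Luc976 and highest with both hairpins. Changes were small: MRPL1, MRPL13, MRPL33 and MRPS33 alone reached 1.5-fold past the threshold (5.19% of members, 27.2% of all genes). With both hairpins 10 members were higher than in either single-hairpin group, among them MRPL13, MRPL33, MRPS5, MRPS14 and MRPS33, and MRPL1 was lower than in either. Over all genes 11.1% were higher than in either and 11.2% lower.

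The interaction asks whether the KIM-1 hairpin acted differently in cells with the VHL hairpin. It passed for 7 of 77 members above 0 (10.2% of all genes tested did) and for 0 below (9.52%), with a median of 0.11 on the log2 scale. The 4 with the smallest p were MRPS5 (0.40 ± 0.09, edgeR adjusted p = 0.00496), MRPS24 (0.42 ± 0.12, 0.0193), MRPS14 (0.35 ± 0.10, 0.0244) and MRPS6 (0.38 ± 0.12, 0.0327). MRPS5 lay at 91.0, 96.8 and 93.2 CPM in Luc976 and at 101, 104 and 100 CPM in shVHL61, so that it was lower by -0.16 ± 0.06 with the KIM-1 hairpin alone (not past the threshold) and higher by 0.23 ± 0.06 with that hairpin on top of shVHL61. MRPS5 alone of the 7 held in all 23 settings. The count was 1 without shKIM-1 replicate 1 or shVHL61-KIM1A1 replicate 3, 2 without shVHL61 replicate 3 or shVHL61-KIM1A1 replicate 2, 3 without Luc976 replicate 2 or shVHL61 replicate 1, 4 without Luc976 replicate 3 or shKIM-1 replicate 3, 11 without shKIM-1 replicate 2 and 15 without shVHL61-KIM1A1 replicate 1. Across these fits the share of all genes above 0 ran from 6.78% to 12.1%. With the length trend removed 2 were above and 3 below 0 (9.07% and 8.18% of all genes), and on log2(TPM + 1) with limma 1 above and 3 below (5.32% and 16.4%). In the limma fit the median was -0.04 over members and -0.13 over all genes.

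Some members share reads or ground with other genes, and the strand used in counting is not given in the sources used here. Expected counts were whole in all samples for 65 members and fractional in some or all for 12, with MRPL45 (which has the pseudogene MRPL45P2) and MRPS6 fractional in every sample. In the GENCODE 29 annotation 17 members overlap an exon of another tested gene, 4 of them on the same strand, including MRPS24 with the read-through gene URGCP-MRPS24 and MRPS6 with SLC5A3. MRPL28 and MRPS16 are the others on the same strand. The 13 on the opposite strand are MRPL2, MRPL19, MRPL32, MRPL34, MRPL37, MRPL43, MRPL47, MRPL49, MRPL51, MRPS2, MRPS7, MRPS12 and MRPS25. Values of these 17 and of the 12 with fractional counts are uncertain for that reason. Among the 65 with whole counts, 20 rose (30.8%) and 11 fell (16.9%) in shVHL61-KIM1A1 against Luc976, where 25.2% of all genes rose and 26.3% fell.

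Ribosomal proteins of the mitochondrion that lack an MRP symbol gave values of both signs. DAP3, the GTP-binding protein of the small subunit, fell in shKIM-1 (-0.15 ± 0.05) and rose in shVHL61-KIM1A1 (0.15 ± 0.05) against Luc976. PTCD3, an RNA-binding small-subunit protein, rose in shVHL61 (0.28 ± 0.09) and in shVHL61-KIM1A1 (0.30 ± 0.09). ICT1, a peptidyl-tRNA hydrolase built into the large subunit, fell in shKIM-1 (-0.26 ± 0.08), and CHCHD1 rose with both hairpins (0.28 ± 0.07). AURKAIP1 and GADD45GIP1 passed in no comparison.

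Lists of other genes of mitochondrial translation were read against the shares over all genes given above, which were 14.8% higher and 16.6% lower in shKIM-1 and 25.2% and 26.3% with both hairpins, each against Luc976. Of 31 assembly factors, 7 fell in shKIM-1 (22.6%) and 0 rose, and in shVHL61-KIM1A1 against Luc976 10 fell (32.3%) and 6 rose (19.4%), the falls led by the RNA helicase DHX30 (-0.63 ± 0.07), MPV17L2 (-0.62 ± 0.09) and the GTPase NOA1 (-0.37 ± 0.07). Of 26 genes of mitochondrial transcription and replication, 9 fell in shKIM-1 (34.6%), and with both hairpins 11 fell (42.3%) and 4 rose (15.4%). There C10orf2, the mitochondrial DNA helicase, changed by -0.83 ± 0.06 and POLRMT, the mitochondrial RNA polymerase, by -0.67 ± 0.10, while SLIRP, which binds mitochondrial messages, rose by 0.37 ± 0.05. Of 15 regulators of mitochondrial biogenesis, 6 fell in shKIM-1 (40%), led by the coactivator PPRC1 (-0.77 ± 0.06) and by NRF1 (-0.45 ± 0.07) and ESRRA (-0.51 ± 0.09), and 9 fell with both hairpins (60%), with PPRC1 at -1.12 ± 0.06 and MYC at -0.44 ± 0.06. Of 22 translation factors 8 rose (36.4%) and 4 fell (18.2%) with both hairpins, with the initiation factor MTIF3 at 0.81 ± 0.10 and LETM1, a membrane anchor of the ribosome, at -0.88 ± 0.06. Of 19 tRNA synthetases 6 rose (31.6%) and 5 fell (26.3%), with NARS2 at 0.50 ± 0.08 and LARS2 at -0.47 ± 0.07.

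The partners of the family were read the same way. In shVHL61-KIM1A1 against Luc976, 42 of 75 nuclear-encoded respiratory chain subunits rose (56.0%) and 2 fell (2.67%), with a median log2 fold change of 0.23. Of 85 cytosolic ribosomal proteins 39 rose (45.9%) and 6 fell (7.06%), with a median of 0.16. Over all genes 25.2% rose and 26.3% fell. In shKIM-1 against Luc976, 42 of the 85 cytosolic proteins fell and 1 rose (median -0.19), while 8 of the 75 respiratory chain subunits fell and 9 rose (median 0.01). Over all genes 16.6% fell and 14.8% rose. Against shKIM-1, 68 cytosolic ribosomal proteins rose with both hairpins (median 0.38). No test of a difference between the lists was made. Short genes as a class were higher in the comparisons with shVHL61-KIM1A1. Counts with the length trend removed are not given for these lists or for those of mitochondrial translation, and the part of length in them was not tested.

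**Figure D4:**
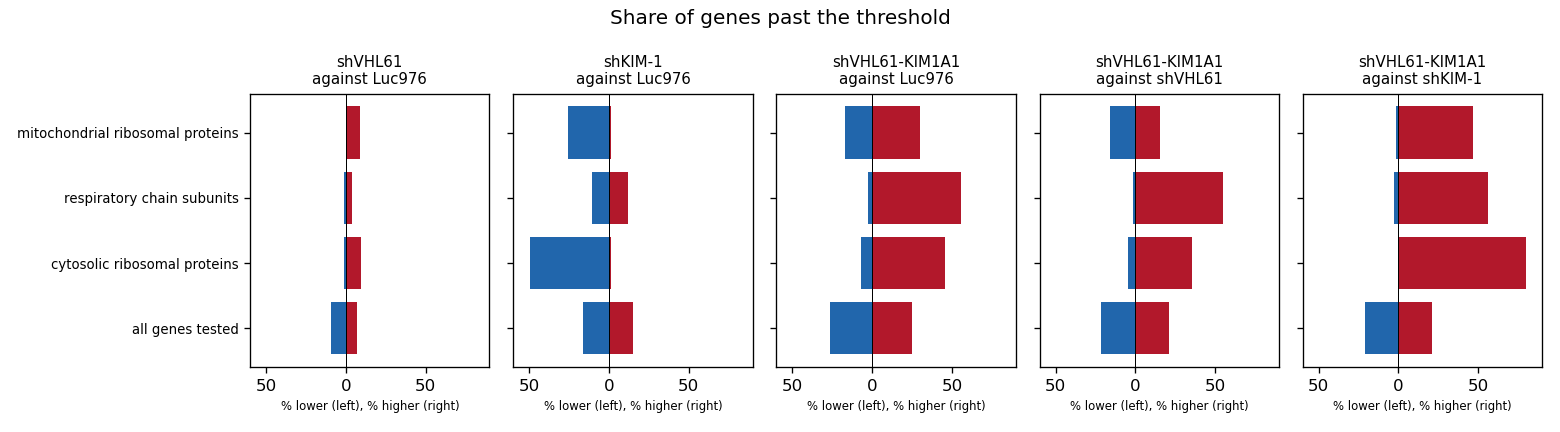
Bars give the percent of genes past the threshold upward (red, to the right) and downward (blue, to the left) in each pairwise comparison, for the 77 members, 75 respiratory chain subunits, 85 cytosolic ribosomal proteins and all 14230 genes tested. Members fell in 26.0% and cytosolic ribosomal proteins in 49.4% in shKIM-1 against Luc976, where 16.6% of all genes fell. With the length trend removed the members' balance in shVHL61-KIM1A1 against Luc976 turns to 12 higher and 27 lower. For the respiratory chain and cytosolic ribosomal lists no such count is given.

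**Figure D5:**
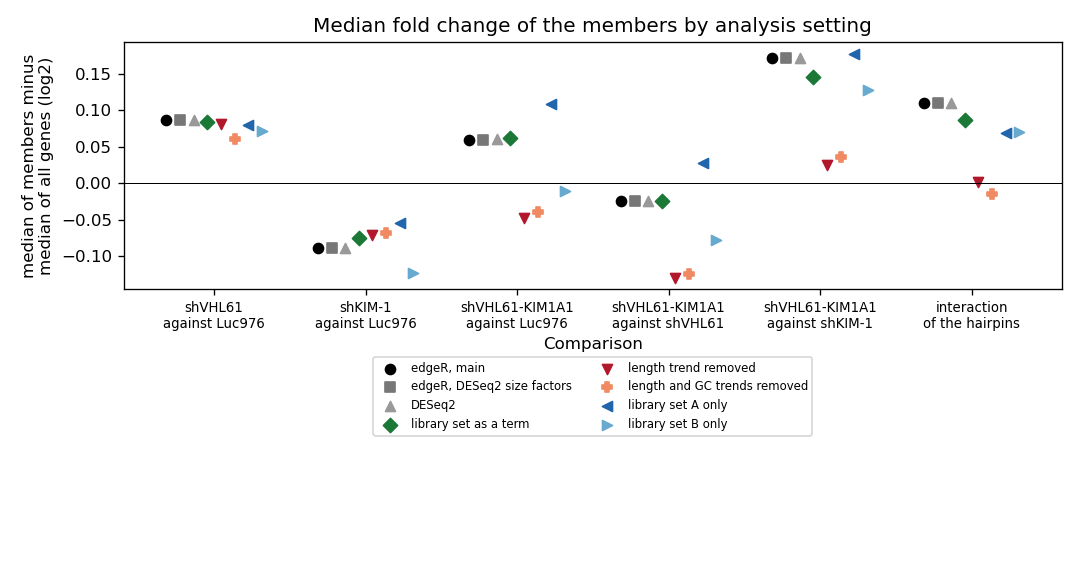
Each symbol is the median log2 fold change of the members minus that of all genes under an analysis setting. In shVHL61 and in shKIM-1 against Luc976 every setting shown kept its sign, whereas in shVHL61-KIM1A1 against Luc976 the median was 0.06 above all genes in the main analysis and -0.05 with the length trend removed.

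The authors' deposited table gives its own comparisons with Luc976. By its value headed PPEE, taken below 0.05, the authors' deposited table held 7 members higher and 0 lower in shVHL61, 1 higher and 15 lower in shKIM-1, and 16 higher and 9 lower in shVHL61-KIM1A1. Over all genes tested the authors' deposited table so held 5.92% higher and 4.93% lower, 6.44% and 10.7%, and 15.5% and 17.8%, in the same order. Of these calls of the authors' deposited table, 4, 15 and 25 were also made in the same direction by edgeR.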

How the data were processed

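Messenger RNA of 12 HK-2 samples was read from 1 table of 26506 genes. Expected counts, which need not be whole, are what the authors deposited (per the file headers); they were rounded here. TPM and FPKM are also the authors' values in the deposited table, and FPKM served only to derive effective length. The authors' deposited fold is a linear ratio over Luc976, and PPEE is a score from 0 to 1 in the deposited table. The submitters' processing notes name Bowtie 0.12.2 and, with no role, the mouse builds mm8 and mm9. The quantifier, the human build and the strand setting: not given in the sources used here.

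Genes were kept by filterByExpr of edgeR 4.0.16 (minimum count 10), which left 14230, and scaled by TMM (factors 0.976 to 1.05). The design had 4 groups, 8 residual degrees of freedom and a biological coefficient of variation of 6.81%. Quasi-likelihood tests were two-sided, with Benjamini-Hochberg adjustment over all genes. SE is the fold change divided by the square root of F. Alternatives used DESeq2 1.42.0, limma 3.58.1 on log2(TPM + 1), a lowess trend on length or length and GC removed per sample (span 0.3), a term for library set, a replicate block and each sample left out. Fits within each library set were chosen after seeing the data. The sets themselves were read from the main axis of spread within groups in these same samples, so p-values with a term for set may be too small. In simulated data for shVHL61 against Luc976, with 200 of the genes changed, edgeR recovered 76.0% of 1.5-fold changes with 4 false calls among 14102 genes. The simulated data had the same spread for every gene and no trend by length, GC or library set, so these figures may not carry over to the measured samples.

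No 2 replicates held identical values, and within groups the chi-square per degree of freedom between replicates was 1.86 or more, above counting noise. Named members are the 6 highest and 6 lowest by TPM, the 5 largest rises and falls past the threshold per comparison, the 4 smallest interaction p-values and the MRPS18 genes, and from each related list up to 3 by p. A few other members were named after their values were seen, as examples of patterns. Members, lists and roles were chosen with earlier results of these data known.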

Additional observations from a re-analysis of the deposited data

Results flagged for a closer look

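For 7 members the effect of the KIM-1 hairpin differed between cells with and without shVHL61 by the test of the interaction (edgeR quasi-likelihood test, adjusted over all genes). On the log2 scale the difference was 0.42 for MRPS24, 0.40 for MRPS5, 0.38 for MRPS6, 0.37 for MRPL13, 0.35 for MRPS14, 0.34 for MRPL21 and 0.32 for MRPL33. For MRPS14 and MRPS5 it also passed with the length trend removed (adjusted p = 0.0391 and 0.0115). For MRPL33 the difference was then 0.05.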

How the results depend on the processing

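Counts of members are given as higher and lower. DESeq2 size factors, no filter on low counts and DESeq2 itself left all 60 results of named genes on their side of the threshold, and no setting reversed a call among these 60. Over all 132 calls of members, 3 had the opposite sign in some setting: MRPL47 against Luc976 (0.22; -0.10 with length and GC trends removed), and, against shKIM-1, MRPL18 (0.18; -0.01 with those trends removed) and MRPS27 (0.17; -0.01 by limma). With a length trend removed, the counts were 9 and 2 for shVHL61 against Luc976, 12 and 27 for shVHL61-KIM1A1 against Luc976, 7 and 29 against shVHL61, 17 and 6 against shKIM-1, and 2 and 3 for the interaction. With length and GC trends removed they were 17 and 4 for shVHL61, 2 and 26 for shKIM-1, 14 and 29, 8 and 39 and 22 and 9 for shVHL61-KIM1A1 against Luc976, shVHL61 and shKIM-1, and 5 and 11 for the interaction. Over all genes the shares were then 13.3% and 13.5% in shVHL61 and 20.9% and 23.6% in shKIM-1. For shVHL61-KIM1A1 they were 28.6% and 30.1%, 25.5% and 27.6%, and 25.4% and 24.1%, and for the interaction 15.0% and 14.6%. By limma on log2(TPM + 1) the counts were 5 and 4, 3 and 12, 15 and 24, 9 and 18, 8 and 14, and 1 and 3 in the order shVHL61, shKIM-1, shVHL61-KIM1A1 against Luc976, shVHL61 and shKIM-1, and interaction. With a term for library set the counts were 20 and 4, 1 and 28, 28 and 19, 19 and 22, 42 and 7, and 17 and 3 in that order. Calls over all genes rose as well, from 7.21% and 9.44% to 13.7% and 14.9% in shVHL61 and from 10.2% and 9.52% to 16.9% and 16.6% for the interaction. With this term they were 20.7% and 22.9% in shKIM-1. For shVHL61-KIM1A1 they were 30.9% and 31.6%, 27.2% and 28.0%, and 28.1% and 27.7%. The sets were read from the main axis of spread within groups in these same samples. A term for set takes that axis out of the spread by construction, so the larger counts are not separate support. In the order above, the members' median log2 fold change was 0.08, -0.06, 0.12, 0.03, 0.18 and 0.07 in set A alone. In set B alone it was 0.08, -0.11, -0.01, -0.07, 0.13 and 0.06. These fits were added after seeing the data, with 2 residual degrees of freedom each. Set A holds a single sample of shVHL61 and of shKIM-1, and set B a single sample of Luc976 and of shVHL61-KIM1A1. The cause of these shifts was not tested.

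Leaving out 1 sample at a time, the counts ranged from 3 to 11 higher and 0 to 1 lower in shVHL61, 1 to 2 and 12 to 24 in shKIM-1, 16 to 24 and 8 to 14 in shVHL61-KIM1A1 against Luc976, 6 to 18 and 8 to 12 against shVHL61, 24 to 36 and 1 to 1 against shKIM-1, and 1 to 15 and 0 to 1 for the interaction. The shares over all genes moved too. Those higher in shVHL61 ran from 3.72% to 10.3%, those lower in shKIM-1 from 12.2% to 19.0%, and those above 0 in the interaction from 6.78% to 12.1%.

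Between same-numbered samples of different groups, the correlation of deviations from the group mean ran from -0.33 to 0.25. With 3 samples per group and deviations that followed the library sets, these values cannot tell whether same-numbered samples were prepared together. With the replicate number as a block, the counts were 4 and 0, 1 and 15, 21 and 12, 9 and 10, 34 and 1, and 4 and 0 in the same order. Over all genes the shares were then 5.0% and 7.1%, 12.6% and 14.6%, and 23.7% and 24.6% against Luc976. They were 19.3% and 19.6% against shVHL61, 19.2% and 19.1% against shKIM-1, and 8.2% and 7.6% for the interaction. In simulated data for shVHL61 against Luc976, edgeR recovered 94.0% of 2-fold changes, 76.0% of 1.5-fold changes and 30% of the smallest changes simulated, which were below 1.5-fold. These data were simulated with the same spread for every gene and without the trends by length, GC and library set.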

Other observations

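MRPS31P5, a pseudogene of MRPS31 at 3.15 to 5.52 CPM in all samples, was lower in shVHL61 than in Luc976 (log2 fold change -0.44 ± 0.14 SE, edgeR adjusted p = 0.0445). Its interaction was 0.66 ± 0.20 on the log2 scale (adjusted p = 0.0308). Its expected counts were fractional in all 12 samples, and its values are uncertain for that reason. MRPS31 itself did not pass in shVHL61.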
